A study of Mus musculus with 9 samples.

Results

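Chemokine receptors are G protein-coupled receptors that steer leukocytes along gradients of small secreted proteins. The genes described here are Cxcr1, Cxcr2, Cxcr3, Cxcr4, Ccr1, Ccr2, Ccr7 and Cx3cr1, taken by symbol as receptors known to direct the traffic of myeloid cells. They make up 8 of the 54532 genes in the deposited table. Cxcr2, together with its close relative Cxcr1, answers the ELR chemokines that draw neutrophils to inflamed tissue, while Cxcr4 answers Cxcl12 and holds maturing cells in the bone marrow. Ccr2 lets inflammatory monocytes leave the marrow, Cx3cr1 marks patrolling monocytes and their descendants, and Ccr7 brings dendritic and lymphoid cells to lymph nodes.

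Total RNA of mouse white cells, labelled as myeloid cells, had been sequenced in 9 libraries from C57BL/6 mice aged 6 to 8 weeks. The groups, of 3 libraries each, were KO (Socs3 knockout), Gr_1 (wild type) and fl (wild type). Per its title, the series concerned how loss of Socs3, a brake on cytokine signalling through STAT3, bears on myeloid differentiation of early suppressor cells. What Gr_1 and fl abbreviate is not spelled out in the labels, and neither are the knockout allele, any Cre driver, or whether libraries A, B and C of a group came from separate animals. The p-values given here therefore measure the spread between these libraries, which may be technical.

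Levels are FPKM, fragments per kilobase of exon and per M (mega) fragments of a library denominator, and so can be set side by side between genes. Recovered depth lay between 18.3 and 21.5 M fragments per library. The denominators were not these totals. They lay below the total in every Gr_1 library (16.03 against 18.96 M in Gr_1 A). In every KO and fl library they lay above it (21.74 against 19.65 M in KO B, 20.76 against 19.49 M in fl B). FPKM differences between Gr_1 and the other groups thus depend in part on this scaling. Socs3 was not lower under its own knockout label: it had 9.23, 6.76 and 8.37 FPKM in the libraries labelled KO and 37.0, 36.6 and 33.0 FPKM in Gr_1, against 3.87, 4.02 and 3.40 FPKM in fl. Every direction given for KO rests on that label. Library KO A carried RNA of 4 Y-linked genes (26.5 FPKM together) and Xist at 0.0028 FPKM, KO B carried Xist (58.5 FPKM) and 0 FPKM of the Y-linked genes, and KO C carried both (26.3 and 14.2 FPKM). All Gr_1 and fl libraries carried the Y-linked RNA with Xist at 0.0104 FPKM or less. KO C lay between KO A and KO B for 5 of the 8 receptors, where 61.5% of all 12289 genes tested did so. Whether it shares RNA with KO A and KO B was not tested. If it does, KO holds fewer than 3 independent libraries, and its SDs and the p-values of its comparisons are smaller than they should be. The fitted receptor changes for KO are therefore also given without KO C, as are the ratios and shares. Lyz2, the lysozyme M gene that marks myeloid cells, averaged 56.3 ± 3.30 FPKM in the libraries labelled KO and 10663 ± 163 FPKM in Gr_1, against 9165 ± 725 FPKM in fl (SD, n = 3 each), so this marker was present in all groups and low in the first. Myeloid genes as a whole did not share its low level. Of 10 early granulocyte genes 0 were called in KO against fl (limma), with Camp at 10156 and 9828 FPKM. As 11.0% of all genes tested were called there, a count of 0 in 10 lies near that share. Of 9 monocyte genes 7 were called lower, where 6.52% of all genes were, with Csf1r at 47.1 and 105 FPKM.

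The receptors differed in their pattern over the groups. The granulocyte receptor Cxcr2 was intermediate in the libraries labelled KO, high in Gr_1 and low in fl, and Ccr1 and Cxcr1 were highest in Gr_1 too. The monocyte receptors Ccr2 and Cx3cr1 ran the other way. Cxcr4 was the most abundant receptor in all 9 libraries. Cxcr3 and Ccr7 stayed low throughout, as did Cxcr1. Ccr7 was also highest in Gr_1, at a mean of 4.43 FPKM there beside 3.84 FPKM for Cxcr1.

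**Figure D1:**
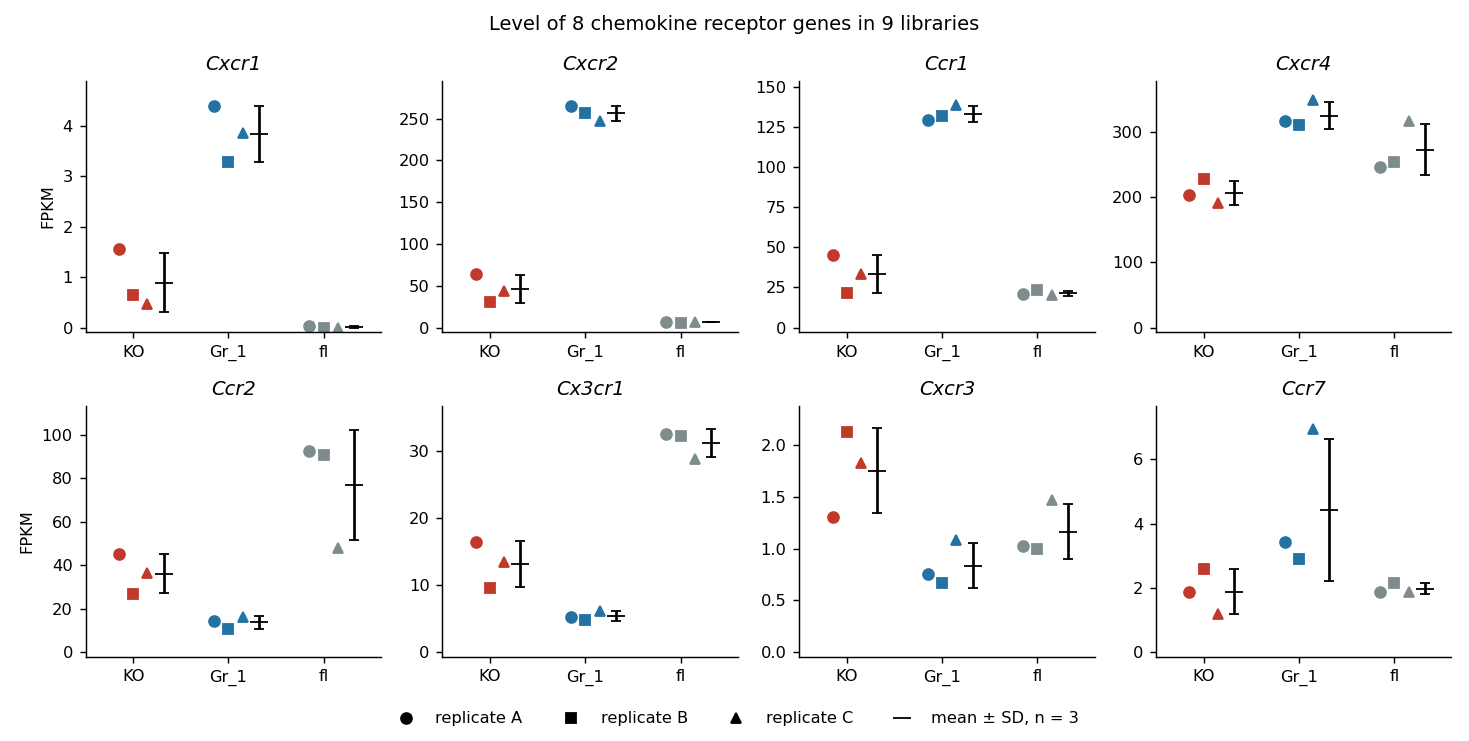
FPKM of each receptor (vertical axes, 1 panel per gene, linear scales that differ between panels) in the libraries labelled KO, in Gr_1 and in fl. Points are single libraries, marked by letter, and the black bar beside them is the mean with its SD over 3 libraries. Cxcr2 averaged 45.8, 256 and 6.56 FPKM in the 3 groups, while Cx3cr1 averaged 13.2, 5.38 and 31.2 FPKM.

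Cxcr2 (ENSMUSG00000026180, chromosome 1, 74153989 to 74161246, plus strand, GRCm38) encodes the main receptor for Cxcl1, Cxcl2 and their relatives on mouse neutrophils. It had 63.6, 30.3 and 43.6 FPKM in libraries A, B and C labelled KO and 265, 257 and 247 FPKM in Gr_1, against 6.80, 6.02 and 6.87 FPKM in fl. No library of one group overlapped another group, and KO B, the lowest of its group, still lay above every fl library. Mean Cxcr2 was 6.98-fold higher in KO than in fl, with a log2 change of 2.57 ± 0.21 (SE) on log2(FPKM + 1) and an adjusted p of 0.000456 (limma, Benjamini-Hochberg over all genes tested). Without KO C the change was 2.57 (limma, adjusted p = 0.00462). In Gr_1 the gene was 39.1-fold higher than in fl (log2 change 5.09 ± 0.21, limma adjusted p = 9.08e-07). The KO mean was 5.60-fold below that of Gr_1 (log2 change -2.52 ± 0.21, limma adjusted p = 4.77e-05; without KO C -2.52, 0.000448). Between 381 and 456 fragments per fl library stood behind these values, so depth did not limit them.

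Cxcr1 (ENSMUSG00000048480, chromosome 1, 74191785 to 74194631, minus strand) lies 30.5 kb from Cxcr2 and encodes its paralog. Its level was far lower: 1.55, 0.648 and 0.463 FPKM in the libraries labelled KO and 4.39, 3.29 and 3.85 FPKM in Gr_1, against 0.0305, 0 and 0 FPKM in fl. The fl group as a whole held 1 Cxcr1 fragment, set against 82 in KO and 286 in Gr_1, and 3 fragments would have stood for 0.0914 to 0.109 FPKM in an fl library. Cxcr1 RNA was thus detected in every KO and Gr_1 library and in 1 fl library. The rate of fragments was 79.3 times higher in KO than in fl (exact 95% interval 13.8 to 3169) and 349 times higher in Gr_1 than in fl (62.1 to 13832). In KO it was 0.227 times the Gr_1 rate (0.175 to 0.291). The rates are taken over the FPKM denominators, and these intervals cover counting error only. Fitted on log2(FPKM + 1), the changes were 0.86 ± 0.19 in KO relative to fl, 2.26 ± 0.19 in Gr_1 relative to fl and -1.40 ± 0.19 in KO relative to Gr_1 (limma, adjusted p = 0.0247, 2e-05 and 0.000426). These sizes depend on the pseudocount: at 0.1 the changes were 3.02, 5.16 and -2.15, and with voom weights on recovered fragments 5.04, 7.33 and -2.29, all called. The first of these calls was lost without fl A (limma, adjusted p = 0.0652), without fl B (0.0756), without fl C (0.0599) and with no filter on low values (0.0678), and held without KO C (log2 change 1.02, adjusted p = 0.0258). The KO against Gr_1 change without KO C was -1.23 (limma, adjusted p = 0.00183). Cxcr1 reached 1 FPKM in the Gr_1 libraries and in KO A alone, so it entered the test through the groups where it was high.

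Ccr1 (ENSMUSG00000025804, chromosome 9, 123962124 to 123968692, minus strand) encodes a receptor of neutrophils and monocytes for Ccl3, Ccl6, Ccl9 and others. It had 45.1, 21.7 and 33.4 FPKM in the libraries labelled KO and 129, 132 and 139 FPKM in Gr_1, against 20.6, 23.2 and 20.4 FPKM in fl. Gr_1 stood clear of both other groups, whereas KO B fell within the fl range. Ccr1 was 6.22-fold higher in Gr_1 than in fl (log2 change 2.58 ± 0.21, limma adjusted p = 1.52e-05) and 3.99-fold lower in KO than in Gr_1 (-2.02 ± 0.21, adjusted p = 0.000103; without KO C -2.05, 0.000748). For KO against fl the log2 difference of 0.56 ± 0.21 did not pass (limma, adjusted p = 0.131). It was 0.53 without KO C (limma, adjusted p = 0.289) and 0.32 without KO A (0.267), and a call without KO B, at 0.83 (0.00581). With KO A as the sole KO library it was 1.04 (0.00336). In that fit the lone library is assumed to vary like the other groups, here and wherever KO A stands alone.

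Between group means, markers of late neutrophils moved with these 3 receptors. The 12 listed genes, among them Ly6g, Mmp8 and Csf3r, summed to between 1854 and 3770 FPKM in the libraries labelled KO and between 11507 and 12345 FPKM in Gr_1, against 984 to 1078 FPKM in fl. In limma 11 of the 12 were called higher in KO than in fl, where 4.48% of all genes tested were, and all 12 higher in Gr_1 than in fl, where 30.0% of all genes were. The lists were chosen with earlier results of these data known. Their counts beside a share of all genes are therefore a description, here and wherever a list is counted. Stfa2l1, at 0.189 FPKM in fl, also entered the test through the groups where it was high. Within KO the sum was 3770 FPKM in A, 1854 FPKM in B and 2814 FPKM in C, the same order as for Cxcr2 and Ccr1. The monocyte receptors Ccr2 and Cx3cr1 had that order too, and Cxcr1 did not, so it is not particular to the granulocyte receptors. The 10 early granulocyte genes went in both directions. The primary granule genes fell in Gr_1: Elane averaged 2387 FPKM in KO and 92.7 FPKM in Gr_1, against 2402 FPKM in fl, and Mpo 989 FPKM in KO and 56.5 FPKM in Gr_1, against 835 FPKM in fl. The secondary granule gene Ngp averaged 13111 FPKM in KO and 23527 FPKM in Gr_1, against 10540 FPKM in fl. In Gr_1 against fl 5 of the 10 were called lower and 3 higher (limma), where 31.4% of all genes were lower and 30.0% higher. In KO against fl 0 were called, where 11.0% of all genes were. The 3 higher and the 0 called lie near those shares. No marker on any cell type list was at 0 in all libraries of a group. The part of cell make-up in the receptor differences was not tested, and in bulk RNA fewer cells of a type and less RNA per cell cannot be told apart.

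Because Cxcr1, Cxcr2 and Ccr1 rose together in Gr_1, the 250 bases before the start of each are shown. They come from RefSeq (GRCm38.p6), read 5′ to 3′ on the gene's own strand. Capitals mark matches, on either strand, to GAGGAA (the PU.1 core) or TTNNGNAA (a relaxed C/EBP motif), the letters searched for these myeloid factors.
Cxcr1, chr1:74194632-74194881, minus strand: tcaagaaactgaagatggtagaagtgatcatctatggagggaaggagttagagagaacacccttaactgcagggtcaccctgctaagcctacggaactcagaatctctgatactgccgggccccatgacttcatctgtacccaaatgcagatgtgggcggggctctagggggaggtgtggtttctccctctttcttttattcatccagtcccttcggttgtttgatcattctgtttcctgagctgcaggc
Cxcr2, chr1:74153744-74153993, plus strand: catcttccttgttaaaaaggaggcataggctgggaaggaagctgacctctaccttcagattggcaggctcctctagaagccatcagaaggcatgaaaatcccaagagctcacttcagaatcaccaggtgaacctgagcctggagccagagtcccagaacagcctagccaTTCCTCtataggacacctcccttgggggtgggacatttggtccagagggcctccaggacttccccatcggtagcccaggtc
Ccr1, chr9:123968693-123968942, minus strand: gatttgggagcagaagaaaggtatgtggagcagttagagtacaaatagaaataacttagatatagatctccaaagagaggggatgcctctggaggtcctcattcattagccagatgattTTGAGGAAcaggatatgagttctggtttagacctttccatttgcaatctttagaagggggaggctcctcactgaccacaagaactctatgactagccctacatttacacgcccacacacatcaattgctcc
The Cxcr2 window holds 1 PU.1 match from 81 to 76 bases upstream. In the Ccr1 window the C/EBP match (131 to 124 bases upstream) and the PU.1 match (129 to 124) overlap. The Cxcr1 window holds neither motif. Among the receptor windows not shown, that of Cxcr3 holds a C/EBP match (185 to 178 bases upstream) and a PU.1 match (14 to 9). Those of Cxcr4 (198 to 191) and Ccr2 (243 to 236) hold a C/EBP match each, and that of Cx3cr1 holds neither motif. Matches were thus not particular to the receptors whose windows are shown. Over all 32851 promoter windows of that length, 23.3% hold GAGGAA and 36.8% hold TTNNGNAA, so a match is common. TTCNNNGAA, the STAT palindrome, is in 7.02% of all windows and in none of the 7 receptor windows at hand, which lack Ccr7. With so low a share, its absence from 7 windows says little. By GENCODE all 250 bases of the Cx3cr1 window lie in exons, as do 233 of the Ccr2 window and 122 of the Cxcr3 window. The bases after the Cxcr4 window were not found in a GENCODE transcript of that gene. A match is a description of the letters and not a site.

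Cxcr4 (ENSMUSG00000045382, chromosome 1, 128588199 to 128592293, minus strand) encodes the Cxcl12 receptor. It had 203, 227 and 191 FPKM in the libraries labelled KO and 317, 310 and 349 FPKM in Gr_1, against 247, 254 and 318 FPKM in fl. The KO libraries lay below all others, and fl C fell within the Gr_1 range. Cxcr4 fell 1.57-fold in KO relative to Gr_1 (log2 change -0.65 ± 0.11, limma adjusted p = 0.00135; without KO C -0.60, 0.00787). Neither other comparison passed: the log2 difference was -0.39 ± 0.11 for KO against fl (limma, adjusted p = 0.0604) and 0.26 ± 0.11 for Gr_1 against fl (0.0730). The difference between KO and fl was -0.34 without KO C (limma, adjusted p = 0.207). It became a call without KO B, at -0.46 (limma, adjusted p = 0.0471), and with voom weights on recovered fragments, at -0.39 (0.0348). The Gr_1 difference became one without fl C, at 0.37 (0.00790).

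A ratio of 2 receptors within a library is little affected by how the library was scaled where both levels are well above the pseudocount of 1. Cxcr2 and Cxcr4 are known to pull neutrophils in opposite directions, towards the blood and back to the marrow. The log2 ratio of Cxcr2 to Cxcr4 (each FPKM + 1) was -2.21 ± 0.61 in KO and -0.34 ± 0.13 in Gr_1, against -5.17 ± 0.17 in fl (SD, n = 3 each). The libraries of the 3 groups did not overlap. The differences were 2.96 for KO minus fl, 4.83 for Gr_1 minus fl and -1.87 for KO minus Gr_1, each with an exact two-sided permutation p of 0.1, the smallest that 3 against 3 libraries allow. Without KO C the differences that involve KO were 2.91 and -1.92. That test cannot pass 0.05, and it gave the same p of 0.1 for each receptor and comparison whose libraries did not overlap.

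Ccr2 (ENSMUSG00000049103, chromosome 9, 124101950 to 124113557, plus strand) encodes the receptor for Ccl2 on inflammatory monocytes. It had 45.1, 26.9 and 36.5 FPKM in the libraries labelled KO and 14.2, 10.5 and 16.4 FPKM in Gr_1, against 92.6, 90.8 and 48.0 FPKM in fl. The groups did not overlap, but fl C came close to KO A. Ccr2 was 5.63-fold lower in Gr_1 than in fl (log2 change -2.37 ± 0.28, limma adjusted p = 0.00012) and 2.64-fold higher in KO than in Gr_1 (1.33 ± 0.28, adjusted p = 0.00377; without KO C 1.31, 0.0144). Against fl, KO was 2.13-fold lower (-1.04 ± 0.28, limma adjusted p = 0.0484), a call at the edge of the threshold. It was lost in 13 of 18 alternative settings, among them leaving out KO B (-0.85, adjusted p = 0.116), KO C (-1.06, 0.126), fl A (-0.88, 0.132) or fl B (-0.89, 0.141), or any 1 of the Gr_1 libraries (0.0586 to 0.0728). Over those settings the log2 change ran from -1.35 to -0.85 and the adjusted p from 0.0120 to 0.141. With KO A as the sole KO library it was -0.70 (limma, adjusted p = 0.366).

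Cx3cr1 (ENSMUSG00000052336, chromosome 9, 119901616 to 120069879, minus strand) encodes the receptor for fractalkine, Cx3cl1. It had 16.5, 9.58 and 13.4 FPKM in the libraries labelled KO and 5.21, 4.77 and 6.15 FPKM in Gr_1, against 32.5, 32.2 and 28.8 FPKM in fl. All 3 groups stood apart. Cx3cr1 fell 2.37-fold in KO relative to fl (log2 change -1.21 ± 0.17, limma adjusted p = 0.00284), and without KO C the change was -1.24 (adjusted p = 0.0153). It was 5.80-fold lower in Gr_1 than in fl (-2.34 ± 0.17, limma adjusted p = 8.23e-06) and 2.45-fold higher in KO than in Gr_1 (1.13 ± 0.17, 0.000583; without KO C 1.10, 0.00341). Its exons overlap those of Gm33858 on the plus strand, to which 34, 17 and 29 fragments were assigned in KO and 1, 8 and 2 in Gr_1, against 48, 49 and 27 in fl. The labels do not say whether counting used strand, so reads of this overlap cannot be told apart.

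The ratio of Ccr2 to Cx3cr1 differed little between the group means. On the log2 scale it was 1.39 ± 0.01 in KO and 1.19 ± 0.16 in Gr_1, against 1.22 ± 0.44 in fl (SD, n = 3 each), with fl C at 0.72 and fl A and fl B at 1.48 and 1.47. The KO minus fl difference was 0.17 and the Gr_1 minus fl difference -0.03 (exact permutation p = 1 for both), and both turned sign when single libraries were left out, the first without fl C (-0.08) and the second without Gr_1 B (0.06), fl A (0.10) or fl B (0.09). KO minus Gr_1 was 0.20 (exact permutation p = 0.1, the smallest possible). Without KO C, KO minus fl was 0.18 and KO minus Gr_1 0.21. Set across lineages, the log2 ratio of Cxcr2 to Ccr2 was 0.30 ± 0.17 in KO and 4.15 ± 0.33 in Gr_1, against -3.31 ± 0.59 in fl. Cxcr2 and Ccr2 were thus closest to parity in KO. Its differences were 3.61 for KO minus fl, 7.46 for Gr_1 minus fl and -3.85 for KO minus Gr_1 (exact permutation p = 0.1 each). Without KO C those that involve KO were 3.63 and -3.83.

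**Figure D2:**
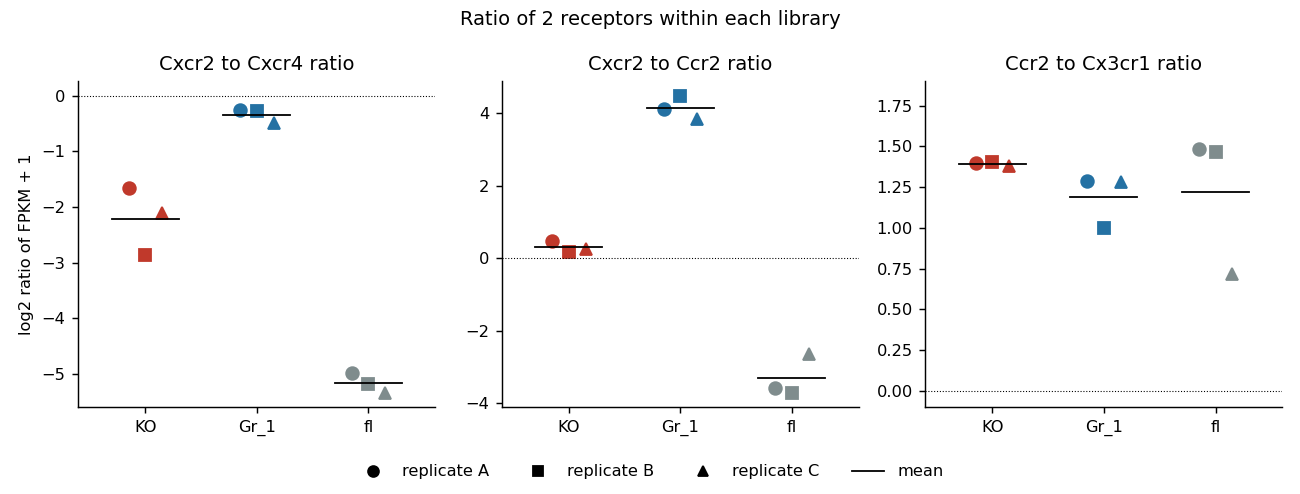
Log2 ratios of FPKM + 1 within each library for Cxcr2 over Cxcr4, Cxcr2 over Ccr2 and Ccr2 over Cx3cr1 (1 panel each), in the libraries labelled KO, in Gr_1 and in fl. Points are single libraries, marked by letter, and lines the mean of 3 libraries. The first ratios separate the groups without overlap, at means of -2.21, -0.34 and -5.17 and of 0.30, 4.15 and -3.31, while fl C lies low, at 0.72, in the last.

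Between group means, most monocyte markers moved with Ccr2 and Cx3cr1. The 9 listed genes, including Csf1r and Fn1, summed to 732 to 743 FPKM in KO and 493 to 555 FPKM in Gr_1, against 1115 to 1221 FPKM in fl. Of these, 7 were called lower in KO than in fl, where 6.52% of all genes tested were, and 8 lower in Gr_1 than in fl, where 31.4% were (limma). Ly6c2 and Cd14 were not called in KO against fl, nor Cd14 in Gr_1 against fl. Within KO the sum of the 9 stayed near level, at 738, 743 and 732 FPKM in A, B and C. Ccr2 and Cx3cr1 were both highest in A and lowest in B. Patrolling monocyte genes were split. Of 6 listed, 3 were called lower in KO than in fl (Nr4a1, Ace and Eno3), where 6.52% of all genes were. In Gr_1 5 were called lower than in fl, where 31.4% of all genes were (limma). Treml4 was called in neither. Their sum, carried by Nr4a1 and Spn, was 220 to 252 FPKM in KO and 156 to 176 FPKM in Gr_1, against 357 to 407 FPKM in fl. In KO A, B and C this sum was 220, 252 and 231 FPKM, the reverse of the order of Ccr2 and Cx3cr1. The library fl C, low for Ccr2, held eosinophil markers such as Epx and Prg2 at 8586 FPKM together, against 4030 and 4366 FPKM in fl A and fl B. In KO those 4 markers summed to 4398, 8995 and 6576 FPKM in A, B and C, and in Gr_1 to between 1282 and 1652 FPKM. The part of any of these in the receptor levels was not tested.

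Cxcr3 (ENSMUSG00000050232, chromosome X, 101731535 to 101734269, minus strand) encodes the receptor for the interferon-induced ligands Cxcl9, Cxcl10 and Cxcl11 and is best known on T and NK cells. It had 1.31, 2.13 and 1.83 FPKM in the libraries labelled KO and 0.757, 0.668 and 1.08 FPKM in Gr_1, against 1.02, 1.0 and 1.47 FPKM in fl. Only KO and Gr_1 did not overlap. Cxcr3 was called higher in KO than in Gr_1 (log2 change 0.58 ± 0.15, limma adjusted p = 0.00954; without KO C 0.56, 0.0349), and this call was lost with KO A as the sole KO library (0.34, 0.236). The log2 difference was 0.34 ± 0.15 for KO against fl (limma, adjusted p = 0.184; without KO C 0.32, 0.374) and -0.24 ± 0.15 for Gr_1 against fl (0.194). The gene is X-linked, and the KO libraries differ in Xist. The library with Y-linked RNA alone, KO A, had the lowest Cxcr3 of the 3. Of 8 T cell markers 3 were tested, and Cd3d, Trac and Lat were all called higher in KO than in fl (limma). Trac reached 1 FPKM in KO alone, and Cd3d in KO and Gr_1 alone. Both thus entered the test through groups where they were high. Their calls are not read against the 4.48% of all genes tested that were called higher in KO than in fl. In Gr_1 against fl Cd3d and Lat were called higher and Trac was not called, and Cd3e averaged 0.346 FPKM in KO and 0.0333 FPKM in Gr_1, against 0.0575 FPKM in fl. The list summed to 9.16 to 10.3 FPKM in KO and 6.73 to 8.10 FPKM in Gr_1, against 1.61 to 2.74 FPKM in fl. Of 7 NK markers 5 were tested, and Ncr1 (log2 change 1.24), Klrb1c (0.78) and Gzma (0.90) were called higher in KO than in fl (limma). Nkg7, which carries most of the sum, was not. Klrb1c reached 1 FPKM in KO alone, and Ncr1 had a median of 0.632 FPKM in fl. Both thus entered the test through KO, where they were high, and their calls are likewise not read against the share of all genes. The NK list summed to 129 to 250 FPKM in KO and 15.4 to 21.1 FPKM in Gr_1, against 138 to 200 FPKM in fl. Their part in the Cxcr3 level was not tested.

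Ccr7 (ENSMUSG00000037944, chromosome 11, 99144196 to 99155077, minus strand) had 1.88, 2.58 and 1.19 FPKM in the libraries labelled KO and 3.44, 2.90 and 6.95 FPKM in Gr_1, against 1.88, 2.17 and 1.86 FPKM in fl. Gr_1 lay above both other groups, with Gr_1 C far above its own group, and KO spanned fl. The log2 change was 0.80 ± 0.26 for Gr_1 against fl (limma, adjusted p = 0.0268) and -0.87 ± 0.26 for KO against Gr_1 (0.0209). The first call was lost without Gr_1 C (0.49, limma adjusted p = 0.0636), without fl A (0.78, 0.0640), without fl C (0.77, 0.0641), with no filter on low values (0.0655) and with the letter as a replicate block (0.0502). The second was lost without KO C (-0.68, 0.0755) and with no filter (0.0538). For KO against fl the log2 difference of -0.07 ± 0.26 did not pass (limma, adjusted p = 0.896; without KO C 0.11, 0.854). Dendritic cell markers were mixed. H2-Ab1, an MHC class II gene that carries most of the sum of the 7 listed, averaged 75.2 FPKM in KO and 46.0 FPKM in Gr_1, against 153 FPKM in fl. Flt3 averaged 3.97 FPKM in KO and 1.44 FPKM in Gr_1, against 2.45 FPKM in fl, and Itgax was called higher in Gr_1 than in fl (log2 change 0.55, limma adjusted p = 0.00938). The list summed to 87.1 to 95.7 FPKM in KO and 50.1 to 59.8 FPKM in Gr_1, against 163 to 199 FPKM in fl. The 6 B and plasma cell markers summed to 62.9 to 81.3 FPKM in KO and 226 to 246 FPKM in Gr_1, against 64.0 to 89.3 FPKM in fl. Their part in the Ccr7 level was not tested.

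Counted over the 8 receptors, 4 were called between KO and fl, with Cxcr1 and Cxcr2 higher and Ccr2 and Cx3cr1 lower, where 11.0% of all genes tested were called (4.48% higher and 6.52% lower). Cxcr1 entered the test through Gr_1 and KO A, where it was high. It is counted among the receptors called and not overlapping in all 3 comparisons. Each count set beside a share of all genes here thus includes a gene admitted by the groups where it was high. Only the other receptors can be read against those shares. Cxcr1 was not tested with only KO and fl in the fit or under a filter of 5 FPKM. Without KO C the count was 3, and with KO A as the sole KO library it was 4, with Ccr1 in and Ccr2 out. Without fl A or without fl B it was 2. The libraries of KO and fl did not overlap for 5 receptors, against 31.4% of all genes. Between Gr_1 and fl 6 were called, where 61.4% of all genes were (30.0% higher and 31.4% lower), with Cxcr1, Cxcr2, Ccr1 and Ccr7 higher and Ccr2 and Cx3cr1 lower. Their libraries did not overlap for 6 receptors, against 67.5% of all genes. Both shares lay close to the background, with Cxcr1 and without it. Between KO and Gr_1 all 8 were called, Cxcr1 among them, where 55.7% of all genes were (26.7% higher and 28.9% lower). Ccr2, Cx3cr1 and Cxcr3 were higher in KO and the other 5 lower. Without KO C 7 were called, and with KO A as the sole KO library 6. No library of KO overlapped Gr_1 for any receptor, against 68.2% of all genes apart. The 3 comparisons share libraries and are not independent of each other.

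**Figure D3:**
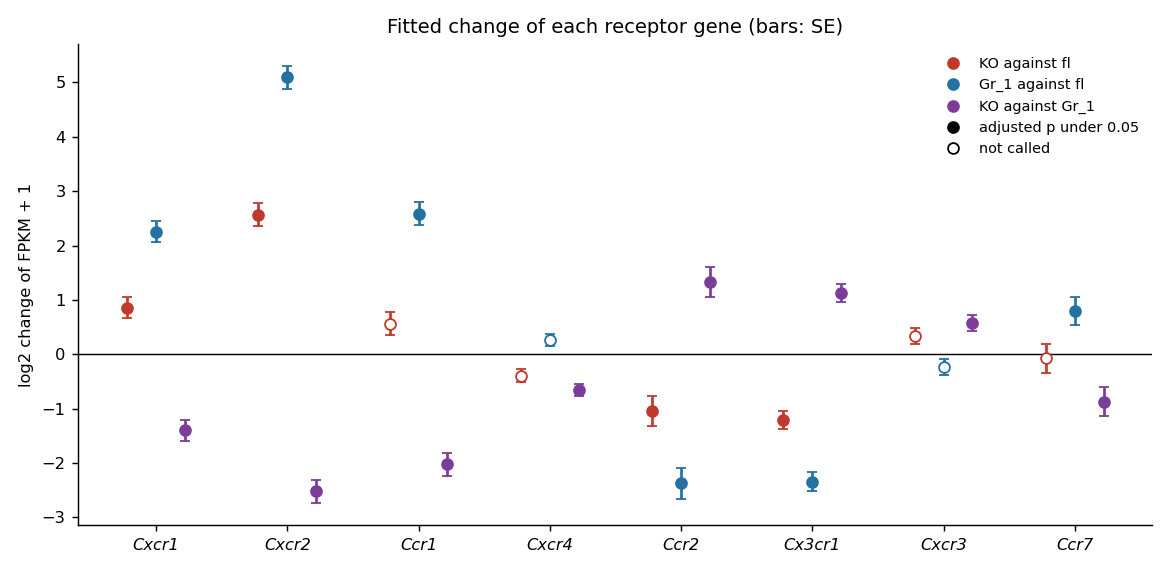
Log2 change on log2(FPKM + 1) with its SE for each receptor in KO against fl, Gr_1 against fl and KO against Gr_1, with filled symbols for an adjusted p under 0.05 in limma. At the pseudocount of 1 shown, Cxcr2 lies at 2.57, 5.09 and -2.52, and Ccr2 and Cx3cr1 lie on the opposite side of 0 from it.

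Set in order within a group, Cxcr4 stood first in each. In the libraries labelled KO, Cxcr2, Ccr2 and Ccr1 came next with overlapping ranges, then Cx3cr1 apart from them, and last Ccr7, Cxcr3 and Cxcr1, whose neighbouring ranges overlapped. For Gr_1 the order was Cxcr4, Cxcr2, Ccr1 and Ccr2, each apart from the next, then Cx3cr1, Ccr7 and Cxcr1 with overlapping neighbours, and Cxcr3 last and apart. For fl it was Cxcr4, Ccr2, Cx3cr1, Ccr1, Cxcr2, Ccr7, Cxcr3 and Cxcr1, with no overlap between neighbours. In KO the range of Cxcr2 thus overlapped that of Ccr2, while Cxcr2 ranked above Ccr2 and Cx3cr1 in Gr_1 and below both in fl.

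The summed FPKM of the 8 receptors was 340 ± 32.5 in KO and 743 ± 24.2 in Gr_1, against 412 ± 11.5 in fl (SD, n = 3 each). Cxcr4 held 61.3 ± 8.70% of it in KO and 43.8 ± 1.38% in Gr_1, against 66.0 ± 7.54% in fl. Cxcr2 held 13.3 ± 3.71% in KO and 34.5 ± 2.10% in Gr_1, against 1.59 ± 0.111% in fl. Without KO C the KO sum averaged 349 FPKM, with shares of 62.2% for Cxcr4, 13.1% for Cxcr2, 9.35% for Ccr1, 10.2% for Ccr2 and 3.67% for Cx3cr1. For Ccr2 the share over all 3 KO libraries was 10.6 ± 1.91% in KO and 1.84 ± 0.343% in Gr_1, against 18.8 ± 6.54% in fl. Cxcr4 and Ccr2 thus held smaller shares in Gr_1 than in fl, and Cxcr2 a larger one. Ccr1 held 9.70 ± 2.65% in KO and 17.9 ± 0.399% in Gr_1, against 5.20 ± 0.445% in fl, and Cx3cr1 held 3.84 ± 0.749% in KO and 0.722 ± 0.0711% in Gr_1, against 7.58 ± 0.696% in fl.

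**Figure D4:**
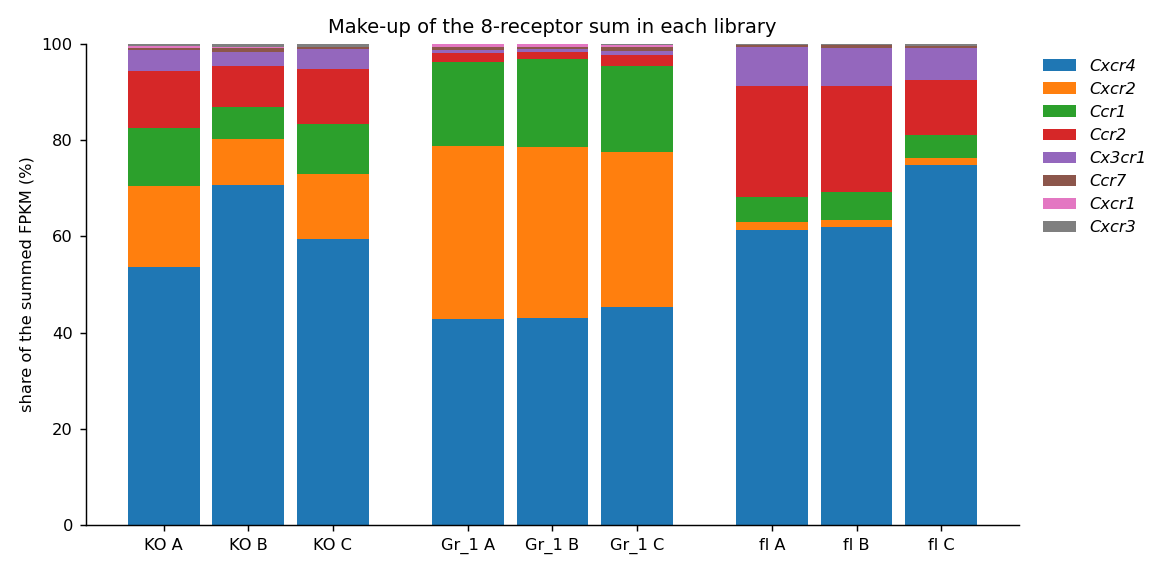
Share of the summed FPKM of the 8 receptors held by each (vertical axis, percent), as stacked bars with 1 bar per library for the libraries labelled KO, then Gr_1, then fl. Cxcr4 takes the largest part in every bar, and the part of Cxcr2 averages 13.3% in KO and 34.5% in Gr_1, against 1.59% in fl.

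Among the ligands of these receptors, 10 of 20 listed genes passed the filter on low values. In KO against fl 2 were called, both lower, where 6.52% of all genes tested were lower. Ccl2, the main ligand of Ccr2, averaged 1.89 ± 0.287 FPKM in KO and 5.77 ± 0.362 FPKM in fl (log2 change -1.23, limma adjusted p = 0.00333). Ccl9, a ligand of Ccr1, averaged 42.8 ± 1.80 FPKM in KO and 93.6 ± 4.79 FPKM in fl (-1.11, 0.00470). Both calls held without KO C and were lost with KO A as the sole KO library (0.0561 and 0.0633). In Gr_1 against fl 9 of the 10 were called, where 61.4% of all genes were. Of the 9, Cxcl12 entered the test through the Gr_1 libraries, at 2.64 FPKM against 0.111 FPKM in fl. Its call is not set against that share. Among the 5 higher ones was Cxcl2, a ligand of Cxcr2, with 109 ± 51.7 FPKM in Gr_1 and 17.9 ± 1.53 FPKM in fl (2.45, limma adjusted p = 0.000115), and among the 4 lower ones were Ccl2 (-1.64, 6.89e-05) and Ccl9 (-2.55, 6.35e-06). Ligands were thus found in both directions. In KO against Gr_1, where 55.7% of all genes were called, 3 were higher, among them Ccl5 (2.62, limma adjusted p = 0.000527), and 5 lower, among them Cxcl2 (-1.56, 0.00183) and the Cxcr4 ligand Cxcl12 (-1.24, 0.000266), which entered the test through the Gr_1 libraries. The Ccr7 ligands Ccl19 and Ccl21a were at 0 in all 9 libraries.

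For signalling from receptor to movement, all 22 listed genes were tested. In KO against fl, where 11.0% of all genes were called, 2 were called, both lower: Gngt2, a G protein subunit (log2 change -0.89, limma adjusted p = 0.0188), and the kinase gene Lyn (-0.39, 0.0435). Without KO C neither was (0.0596 and 0.126), nor without fl A (0.0591 and 0.115) or fl B (0.0709 and 0.126). The Lyn call held without KO A and was lost without any 1 of the other libraries. The list's median log2 change was -0.09, beside -0.01 over all genes. In Gr_1 against fl 16 rose and 1 fell, where 30.0% of all genes rose and 31.4% fell, with a median of 0.39 beside -0.03 over all genes. Examples are Pik3cg, the PI3-kinase subunit downstream of G proteins (0.78, limma adjusted p = 1.48e-05), the Rac activator gene Prex1 (0.81, 0.000431) and Rac2 (0.72, 0.000382). In KO against Gr_1 17 fell and 0 rose, where 28.9% of all genes fell and 26.7% rose, with a median of -0.50 beside 0.01.

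Genes that switch receptors off were tested for 12 of 13. In KO against fl Grk5 (log2 change -0.97, limma adjusted p = 0.00102) and Grk3 (-0.42, 0.0120), both receptor kinases, were lower, and Rgs18, a brake on G protein signalling, was higher (0.64, 0.0276), against 11.0% of all genes called. Without KO C only Grk5 was called, while Grk3 had an adjusted p of 0.0595 and Rgs18 one of 0.0844 (limma), and the Rgs18 call was also lost without KO A (0.0773). The median was 0.00, beside -0.01 over all genes. In Gr_1 against fl 7 rose, among them the arrestin gene Arrb2 (1.27, limma adjusted p = 1.65e-05), and 3 fell, including Grk3 (-1.59, 1.72e-06) and Rgs1 (-1.37, 0.00173), with a median of 0.42, where 30.0% of all genes rose and 31.4% fell. In KO against Gr_1 2 rose, Grk3 (1.17, 2.98e-05) and Rgs1 (1.45, 0.00163), and 10 fell, where 26.7% of all genes rose and 28.9% fell, with a median of -0.46 beside 0.01 over all genes.

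**Figure D5:**
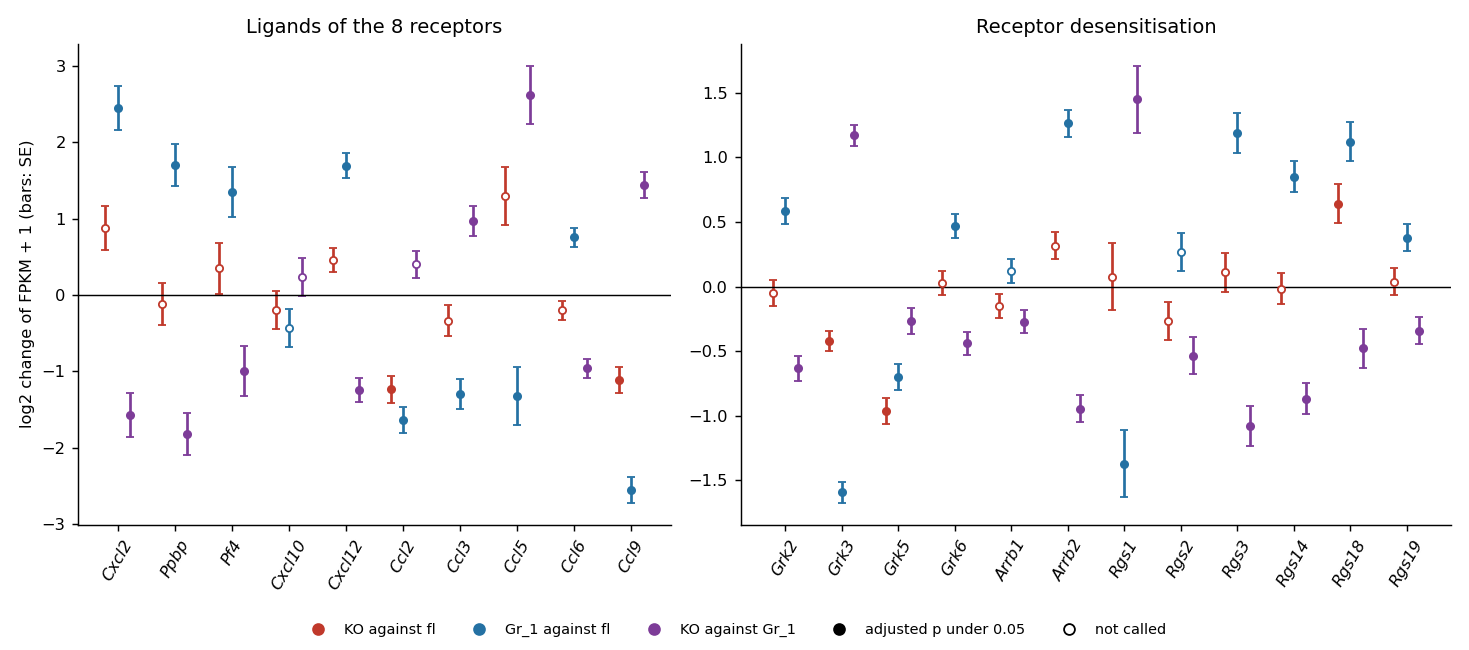
Log2 change on log2(FPKM + 1) with its SE for each tested ligand gene (left) and desensitisation gene (right) in the 3 comparisons, with filled symbols for an adjusted p under 0.05 in limma and open ones for no call. Grk3 lies at -0.42, -1.59 and 1.17 and Ccl9 at -1.11, -2.55 and 1.44, while Arrb2 was called in the last pair of comparisons only, at 1.27 and -0.95.

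The receptors outside the 8 were mostly scarce: 2 of 16 listed passed the filter on low values, Ccr3, the eotaxin receptor of eosinophils, and the atypical receptor gene Ccrl2. Ccr3 averaged 11.5 ± 6.22 FPKM in KO and 8.96 ± 0.776 FPKM in Gr_1, against 6.69 ± 1.43 FPKM in fl, and Ccrl2 averaged 14.3 ± 1.12 FPKM in KO and 17.7 ± 8.18 FPKM in Gr_1, against 18.5 ± 2.31 FPKM in fl. By limma 0 of the 2 were called in any comparison, and 0 had an unadjusted p under 0.05. Leaving out single libraries made calls: Ccr3 passed without KO B for KO against fl (1.0, limma adjusted p = 0.0222) and for KO against Gr_1 (0.62, 0.0409), and Ccrl2 passed without Gr_1 C for Gr_1 against fl (-0.47, 0.0135).

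Scaling moved the balance of higher and lower calls. Rescaling each library without the 10 most abundant genes moved the median log2 change of all genes to 0.06 (KO against fl), -0.12 (Gr_1 against fl) and 0.16 (KO against Gr_1), and quantile normalization moved it to -0.003, -0.08 and 0.07. With the deposited scaling 551 genes were higher and 801 lower in KO than in fl, 3686 and 3864 in Gr_1 than in fl, and 3287 and 3556 in KO than in Gr_1. After rescaling these splits were 815 and 578, 3052 and 4600, and 4819 and 2532. Under quantile normalization they were 633 and 789, 3351 and 4332, and 3904 and 3139. The 8 receptors kept their signs under both, but the Ccr2 call in KO against fl was lost under both (limma, adjusted p = 0.0829 and 0.0711), which left 3 receptors called. For the signalling list, the rescaled counts were 14 higher and 1 lower in Gr_1 against fl and 1 higher and 14 lower in KO against Gr_1, and for the desensitisation list in KO against Gr_1 they were 2 and 5.

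The genes whose pattern over the 9 libraries was most like that of a receptor were found by Pearson's r of log2(FPKM + 1). The points share libraries, groups and depth, so the values are a description. For Cxcr2 they were Scrg1, the collagenase gene Mmp8 and the Gr-1 antigen gene Ly6g (r = 0.998 each). Ly6g averaged 107 ± 44.9 FPKM in KO and 684 ± 44.9 FPKM in Gr_1, against 9.99 ± 1.62 FPKM in fl. For Cxcr1 they were Plvap (0.996), Sfn (0.992) and Gramd1b (0.991), and for Ccr1 they were Akirin1 (0.999), Phf21a (0.998) and Dhrs7 (0.997). The genes nearest to the monocyte receptors ran low in Gr_1: for Ccr2 they were Met (0.994), the scavenger receptor gene Msr1 (0.993) and Ms4a4a (0.992), and for Cx3cr1 Rnase6 (0.9996), Ptpro (0.997) and Ifi30 (0.997). Ms4a4a shared the low fl C value of Ccr2, with a range from 16.9 to 39.1 FPKM in fl. Cxcr3 was nearest to Slc35g1 (0.983), Il6 (0.978) and Cyp11a1 (0.977), Cxcr4 to Cyth1 (0.956), Ndufs4 (0.946) and Cnst (0.942), and Ccr7 to Galnt4 (0.949), Mul1 (0.946) and Gp9 (0.944).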

How the data were processed

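The authors deposited 1 table of FPKM values per gene and library, per the file headers. Tools listed in the submitters' processing notes, without their roles, are featureCounts (1.5.0-p3) and DESeq2 (1.16.1), beside the builds mm10 and GRCm38. An aligner was not given in the sources used here. FPKM times GENCODE M21 exon length gave the fragments behind each value, whole within 0.02 for 97.2% to 97.5% of values under 1000 fragments per library. At 1 kb, 3 fragments equal 0.136 to 0.187 FPKM, which covers counting error only. Symbols came from GENCODE M21 (54409 matched, 123 did not).

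The 12289 genes that reached 1 FPKM in 3 or more libraries were fitted as log2(FPKM + 1) with limma 3.58.1 (R 4.3.3, mean-variance trend), 1 term per group, all 9 libraries, 6 residual degrees of freedom, tested on simulated data. P-values are two-sided, Benjamini-Hochberg adjusted over all genes tested, and called under 0.05. Folds are ratios of mean FPKM and are not 2 to the log2 change. All 8 receptors and Socs3 were named whatever their values, then the 3 genes of highest r per receptor, called pathway genes, and the most abundant genes of a list with no call. The receptors and lists were chosen with earlier results of these data known. Python 3.11.15 and scipy 1.17.1 made the exact tests.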

Additional observations from a re-analysis of the deposited data

How the results depend on the processing

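For single receptors, 413 of the recomputed values kept their direction and side of the threshold, 27 lost a call, 5 gained one and 1 turned sign, Ccr7 in KO against fl, at 0.11 without KO C (-0.24 to 0.11 over the libraries left out); the cause of these moves was not tested. Cxcr2 and Cx3cr1 were called in all 18 alternative settings of all 3 comparisons. The calls for KO against fl, 1352 genes, fell to 797 when only the groups compared entered the fit and to 573 to 1261 with 1 library left out, lowest without KO C. Leaving out KO B and C together, added after seeing the data, gave 612, and 3302 of 6843 for KO against Gr_1. Receptors called in KO against fl numbered 2 with no filter, 2 with only the groups compared and 2 to 5 with 1 library left out, and 5 in KO against Gr_1 under a stricter filter of 5 FPKM, which removed the other 3 from the test. With 1 library left out, other receptors called ran from 0 to 1 in each comparison, signalling genes in KO against fl from 0 to 4 and desensitisation genes from 1 to 4. Rescaling gave 1 other receptor for Gr_1 against fl, 2 for KO against Gr_1, and 7 desensitisation genes there. Without KO B and C the other receptors called were 1 in KO against fl and 1 in KO against Gr_1, the ligands 0 and 5, the signalling genes in KO against fl 0 and the desensitisation genes in KO against Gr_1 5. The Ccr2 to Cx3cr1 ratio difference turned sign in Gr_1 minus fl at pseudocounts of 0.1 (0.074) and 0.5 (0.024), and ran from -0.284 to 0.10 with 1 library left out; for KO minus fl it ran from -0.0808 to 0.303.

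The letters showed no clear pairing of the samples. In their deviations from group means, same-letter libraries correlated between -0.06 and 0.14, the highest for KO A and fl A. Libraries of different letters correlated between -0.13 and 0.08. With 3 libraries per group these values cannot decide whether the letters pair. With the letter as a replicate block 1037, 7280 and 6469 genes were called for KO against fl, Gr_1 against fl and KO against Gr_1, and 1 signalling gene for KO against fl. Depth limits Cxcr1 in fl, where 3 fragments stand for about 0.1 FPKM.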

Other observations

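Ccr1 and Ccr2 are 133 kb apart in a cluster of chemokine receptor genes on chromosome 9, and they moved in opposite directions between Gr_1 and fl. Ccr3, which lies between them, averaged 11.5 FPKM in the libraries labelled KO and 8.96 FPKM in Gr_1, against 6.69 FPKM in fl. Cxcr6, in the same cluster, was far lower, at 0.645 FPKM in KO and 0.227 FPKM in Gr_1, against 0.309 FPKM in fl. Basophil and mast cell markers, 6 genes including Mcpt8 and Cpa3, summed to 153 to 215 FPKM in KO and 43.1 to 76.1 FPKM in Gr_1, against 51.0 to 98.7 FPKM in fl.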
